A study of Mus musculus with 48 samples.

Results

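The effect of high-fat feeding on the lung was described in animals that breathed filtered air only, by setting 8 diet-induced obese mice (DIO-SC) against 8 regular weight mice (RW-SC). These 16 arrays were taken, by their sample labels, from a series of 48 arrays of mouse lung RNA, and 12393 genes were tested, each by 1 probe set. All animals were male C57BL/6 mice bought at 13 weeks of age and aged 15 weeks when the exposures began. The obese mice ate pelleted D12492 diet with 60 kcal% fat, which the labels say began at 6 weeks of age and ran for 9 weeks before exposure, and the regular weight mice ate PMI 5002 diet with about 5 kcal% fat. Both groups were sham controls: they were held in nose-only inhalation equipment and given filtered air on 8 days within 2 weeks, 5 h each day, and lungs were collected on the next day. The remaining 32 arrays came from obese and regular weight mice that breathed mainstream smoke (DIO-MS and RW-MS) or sidestream smoke (DIO-SS and RW-SS) on the same schedule, 8 animals in each group. The diets differ in composition as well as in fat, so that diet, body weight and fat mass cannot be told apart here, and the animal description mentions an LPS study of 4 days whose relation to these animals it does not give.

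Several of the genes below belong to systems with well known triggers. The heat shock response is driven by the transcription factor HSF1, which binds inverted repeats of the letters GAA upstream of chaperone genes and raises Hsp70, Hsp90 and the cochaperones that help proteins fold. Cyp1a1, an enzyme that oxidises polycyclic aromatic hydrocarbons and many plant compounds, is the best known target of the aryl hydrocarbon receptor, a ligand-activated transcription factor that binds sites with the core GCGTG and responds to smoke and to dietary ligands. Fkbp5, Zbtb16 and Tsc22d3 are induced by glucocorticoids through the glucocorticoid receptor. B cells in mouse lung lie in blood, in the interstitium and in small lymphoid aggregates near airways. Because whole lung was measured, fewer cells of a type and less RNA per cell cannot be told apart.

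The upstream sequences of 4 chaperone genes and of Cyp1a1 are shown as examples, and only windows with a match of the marked motif were shown. All 4 chaperone genes are among the 7 measured members of the chaperone list whose window holds it. Chordc1 and Dnajb1, which had larger differences than Hspe1, had no match in their windows. Each sequence shown is the 250 bases before the gene start in the RefSeq table of GRCm38.p6, 5′ to 3′ on the strand of the gene. The capitals mark GAANNTTC, a core of the heat shock element, in the chaperone genes and GCGTG, the core of the aryl hydrocarbon receptor site, in Cyp1a1.
Hspa1b, chr17:34959239-34959488, minus strand: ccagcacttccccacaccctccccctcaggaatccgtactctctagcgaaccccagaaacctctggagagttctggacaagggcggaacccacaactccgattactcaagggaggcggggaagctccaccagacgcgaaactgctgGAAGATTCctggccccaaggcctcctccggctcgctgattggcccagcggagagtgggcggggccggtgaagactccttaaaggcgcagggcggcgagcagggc
Hspa1a, chr17:34972157-34972406, minus strand: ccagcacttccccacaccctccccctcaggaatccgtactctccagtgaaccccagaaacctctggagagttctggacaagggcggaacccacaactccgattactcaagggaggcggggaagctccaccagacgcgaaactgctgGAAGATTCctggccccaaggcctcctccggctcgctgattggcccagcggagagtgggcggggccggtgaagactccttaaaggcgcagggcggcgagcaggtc
Dnaja1, chr4:40722218-40722467, plus strand: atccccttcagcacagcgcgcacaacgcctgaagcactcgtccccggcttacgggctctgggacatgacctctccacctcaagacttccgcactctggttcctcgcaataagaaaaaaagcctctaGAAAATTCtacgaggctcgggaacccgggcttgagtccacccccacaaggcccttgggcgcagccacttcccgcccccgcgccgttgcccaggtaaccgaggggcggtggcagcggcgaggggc
Hspe1, chr1:55087898-55088147, plus strand: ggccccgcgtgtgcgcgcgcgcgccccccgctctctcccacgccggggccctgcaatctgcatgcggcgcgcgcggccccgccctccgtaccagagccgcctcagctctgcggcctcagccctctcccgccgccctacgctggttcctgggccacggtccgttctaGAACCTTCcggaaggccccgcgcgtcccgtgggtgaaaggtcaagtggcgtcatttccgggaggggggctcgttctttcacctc
Cyp1a1, chr9:57697363-57697612, plus strand: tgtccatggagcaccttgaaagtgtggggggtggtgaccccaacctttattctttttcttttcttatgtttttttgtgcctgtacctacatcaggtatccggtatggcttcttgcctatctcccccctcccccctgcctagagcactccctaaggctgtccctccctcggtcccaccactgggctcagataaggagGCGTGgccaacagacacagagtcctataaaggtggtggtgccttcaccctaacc

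Both strands of the 250 bases were searched for each motif, and each window shown holds 1 match of its marked motif. The windows of Hspa1b and Hspa1a, neighbouring copies of the inducible Hsp70 gene, are identical at 247 of 250 positions, and both start their match 104 bases before the gene start. GAANNTTC occurred in 36.8% of the 19 measured members of the chaperone list with an entry in the table, which are Dnaja1, Fkbp4, Hspa1a, Hspa1b, Hspb1, Hspd1 and Hspe1. It occurred in 6.59% of the 9887 measured genes with an entry, and in 0 of the 12 B cell genes with one. The chaperone matches are not independent: Hspa1a and Hspa1b are near copies, and Hspd1 and Hspe1 share a promoter region. GCGTG occurred in 44.7% of the measured genes, so its single match in Cyp1a1 is common. A match of letters is not a bound site, and these windows say nothing of sites farther away.

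In the linear model fitted to all 48 arrays with limma, 1026 of 12393 genes (8.28%) differed between obese and regular weight lungs in air at a Benjamini-Hochberg adjusted p below 0.05. Of these, 284 genes (2.29%) were higher in obese lungs and 742 (5.99%) were lower, and with every array centred on its median the split was 416 higher and 543 lower. The median log2 difference of all genes was -0.03, and differences below are not corrected for it. Most differences were small: 52 higher and 41 lower genes passed 1.5-fold, and 15 higher and 6 lower genes passed 2-fold. All 8 obese arrays lay above all 8 regular weight arrays for 38 genes (0.307%) and below them for 103 genes (0.831%).

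Signs of RNA quality did not separate the groups: the 3′ minus 5′ log2 signal of the Actb control probe sets was 0.40 ± 0.06 in obese and 0.39 ± 0.13 in regular weight lungs (SD, n = 8 each). Among the air arrays, DIO-SC-3 and DIO-SC-7 stood apart. Their mean correlations to the other arrays of the series were 0.954 and 0.958, against 0.986 to 0.990 for the other 14 air arrays. The smoke arrays DIO-MS-1, DIO-MS-6 and RW-SS-6 were also low, at 0.9685, 0.9711 and 0.9794. These smoke arrays were kept in the main fit, where they enter the estimate of spread and the smoke comparisons. On DIO-SC-3, 185 genes lay more than 2 log2 units above the median of the other obese air arrays, and on DIO-SC-7 there were 202 such genes. DIO-SC-3 carried transcripts of skeletal muscle and squamous epithelium: the summed linear signal of 21 skeletal muscle genes was 108181, against a median of 6952 over the obese arrays and 1787 to 5267 in regular weight arrays, and that of 14 squamous epithelium genes was 60205, against at most 800 in regular weight arrays. DIO-SC-7 carried transcripts of thymus, where 12 thymocyte genes summed to 30928, against at most 2058 in regular weight arrays. Brown fat transcripts were high on both arrays: 8 brown fat genes summed to 7627 on DIO-SC-3 and 28809 on DIO-SC-7, against at most 1409 in regular weight arrays. Ucp1, the uncoupling protein of brown fat, was at 11.09 and 13.18 log2 units on these arrays and at most 5.17 in regular weight lungs. Another obese array, DIO-SC-8, had 1296 as the summed signal of 9 liver genes, against at most 527 on the other obese arrays and at most 525 on regular weight arrays, and it is kept in both fits. Rag1, the recombinase of developing lymphocytes, was at 12.37 log2 units on DIO-SC-7 and at 3.21 to 3.64 in regular weight lungs, and Krt4, a keratin of stratified epithelium, was at 13.86 on DIO-SC-3 and at 5.16 to 5.78 in regular weight lungs. Each result below is therefore also given without these 2 arrays where that matters. Without them, 295 genes were higher (2.38%) and 472 lower (3.81%): 539 genes were called in both fits, 487 only with all arrays and 228 only without the pair. No called gene had the opposite sign without the 2 arrays. The kept array DIO-SC-8 also lay above all regular weight arrays for Krt4, at 6.83 against at most 5.78. The same held for Rag1, at 4.60 against at most 3.64, and for the muscle gene Tnnc2, at 5.54 against at most 4.70.

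**Figure D1:**
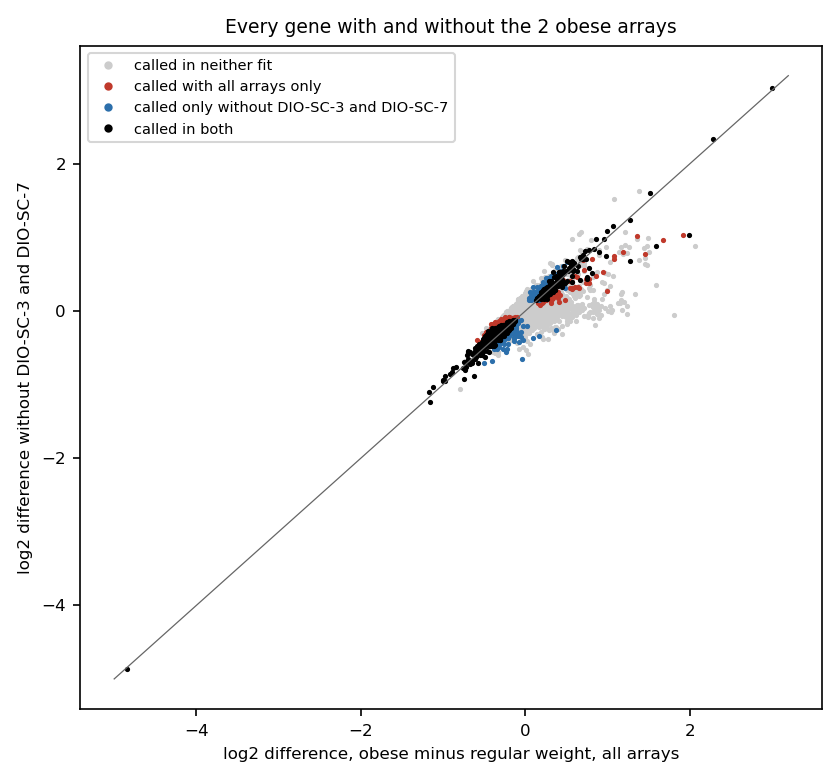
Log2 difference of every gene between obese and regular weight lungs in air with all arrays (horizontal) and without DIO-SC-3 and DIO-SC-7 (vertical), coloured by which fit called the gene, with the line of equality. The points farthest out, Cyp1a1 at the lower left and Hspa1b at the upper right, lie on the line, and grey and red points that fall below the line on the right are genes whose mean on the 2 arrays lay above that of the other obese arrays.

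Cyp1a1 had the largest difference of all genes. Its log2 signal had a low of 4.09, a median of 4.73 and a high of 5.10 in obese lungs, against 9.16, 9.50 and 10.32 in regular weight lungs. The groups were separated by a gap of several log2 units, with no array between them. The difference was -4.84 ± 0.21 log2 (SE, n = 8 each), 28.6-fold lower in obese lungs (limma, adjusted p = 2.1e-22), and it was -4.86 without DIO-SC-3 and DIO-SC-7.

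The receptor itself, Ahr, averaged 10.53 ± 0.33 in obese lungs and 11.03 ± 0.18 in regular weight lungs (SD, n = 8 each), a difference of -0.50 (adjusted p = 8.1e-04, limma). A second Ahr probe set was not called. Of the 9 measured genes of the aryl hydrocarbon receptor list, only Cyp1a1 and Ahr passed the test, both lower, beside 5.99% of all genes that were lower. Cyp1b1, a related hydrocarbon-oxidising enzyme, had a difference of -0.18 (adjusted p = 0.50), and Nqo1, a quinone reductase shared with the NRF2 pathway, had 0.05 (adjusted p = 0.87). None of the 18 NRF2 targets, which encode antioxidant and conjugating enzymes, and none of the 13 other P450, flavin monooxygenase and carboxylesterase genes passed the adjusted threshold in limma. At an unadjusted p under 0.05 the counts were 0 of the 18 and 1 of the 13.

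Chaperone genes were higher in obese lungs. Of the 22 measured genes of the inducible Hsp70 and Hsp90 list, 19 rose and 0 fell, beside 2.29% of all genes that were higher, and the median difference of the list was 0.54 log2, against -0.03 for all genes. For 11 of the 22 genes all 8 obese arrays lay above all 8 regular weight arrays, beside 0.307% of all genes. The count was also 19 without DIO-SC-3 and DIO-SC-7, with a median of 0.56. The mean level of the list relative to regular weight lungs was 0.62 to 0.87 log2 on the 8 obese arrays and -0.06 to 0.08 on the 8 regular weight arrays.

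Hspa1b, which encodes inducible Hsp70, ran from 11.02 to 12.31 with a median of 11.69 in obese lungs, against 7.65 to 9.40 with a median of 8.81 in regular weight lungs. Hspa1a ran from 8.90 to 10.82 with a median of 9.80 in obese lungs, against 7.20 to 7.87 with a median of 7.48. All 8 obese arrays lay above all regular weight arrays for both. The differences were 3.01 ± 0.24 (SE, 8.03-fold, adjusted p = 1.5e-12) and 2.29 ± 0.20 (4.87-fold, adjusted p = 1.0e-11, limma), and all 3 Hspa1b probe sets were called higher. Since the pair is nearly identical in sequence, their probes may read both transcripts.

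The genes that serve these chaperones moved with them. Hsph1, a nucleotide exchange factor of Hsp70, was 1.52 ± 0.12 higher (SE, adjusted p = 2.4e-12), with values of 10.84 to 11.77 in obese lungs and 9.53 to 10.22 in regular weight lungs. Dnaja1, a J-domain partner of Hsp70, was 1.07 ± 0.09 higher (adjusted p = 6.3e-12), and Dnajb1, another, was 0.78 ± 0.10 higher (adjusted p = 2.4e-07). Chordc1, which binds Hsp90, was 0.96 ± 0.09 higher (adjusted p = 3.3e-11), and Cacybp, a partner of Siah ubiquitin ligases, was 0.84 ± 0.08 higher (adjusted p = 3.1e-10). Ahsa2, related to the Hsp90 ATPase activator Ahsa1, was 1.0 ± 0.10 higher (adjusted p = 8.7e-10). Stip1, the adaptor that joins Hsp70 to Hsp90, was higher by 0.71 (adjusted p = 1.4e-09).

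The abundant forms showed smaller but very regular differences. Hspa8, the constitutive Hsp70, had 13.59 to 13.77 in obese lungs and 13.02 to 13.26 in regular weight lungs, a difference of 0.54 ± 0.05 (adjusted p = 3.5e-10, limma). Hsp90aa1 was 0.56 ± 0.08 higher (adjusted p = 2.4e-06) and the groups overlapped on 1 obese array. The mitochondrial chaperonin pair Hspd1 and Hspe1, which share a promoter region, were 0.63 and 0.43 higher (adjusted p = 1.1e-06 and 5.8e-04). Hspa4 and Cryab, both in the list, did not pass, with differences of 0.06 and 0.09. Of the 8 subunits of the cytosolic chaperonin CCT, 4 rose, beside the same 2.29%, Cct3 by 0.31 and Cct6a by 0.33 (adjusted p = 7.4e-05 and 3.4e-04), with a list median of 0.13, and 3 were called without the 2 arrays.

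Cirbp, the cold-inducible RNA-binding protein whose transcript is known to fall as temperature rises, was lower in every obese lung. It had 7.06, 7.47 and 7.88 as low, median and high in obese lungs, against 8.25, 8.62 and 8.84 in regular weight lungs, a difference of -1.16 ± 0.12 (SE, adjusted p = 2.4e-09, limma). Srsf5, a splicing factor placed in the same list, was 0.54 log2 units below (-0.54 ± 0.08, adjusted p = 2.1e-05), with 11.42 to 12.20 in obese lungs and 11.98 to 12.52 in regular weight lungs. These were the 2 called of 3 measured genes of that list, and the remaining member differed by only -0.03. Among 21 genes of the unfolded protein response of the endoplasmic reticulum, 4 rose and 1 fell, beside 2.29% of all genes higher and 5.99% lower, with a median of 0.11. Manf, a secreted survival factor of that response, was 0.42 higher (adjusted p = 3.5e-04), Hspa5, its main chaperone, 0.30 (adjusted p = 0.0059) and Creld2 0.27 (adjusted p = 0.014), while Chac1, a glutathione-degrading enzyme, differed by -0.29 (adjusted p = 0.046).

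**Figure D2:**
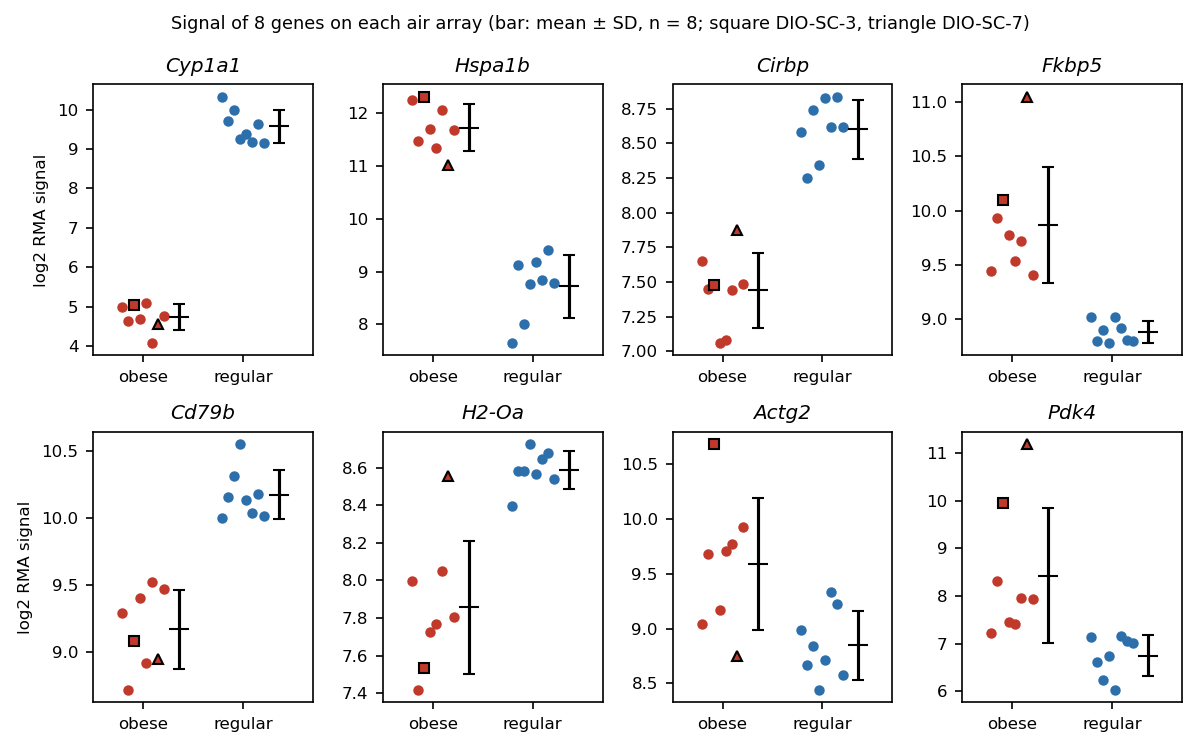
Log2 RMA signal of 8 genes on the 8 obese (left) and 8 regular weight (right) air arrays, with mean and SD; DIO-SC-3 is the square and DIO-SC-7 the triangle. Cyp1a1, Hspa1b, Cirbp, Fkbp5, Cd79b and Pdk4 separate all arrays. In Pdk4, with 7.23 to 11.19 in obese lungs, and in Fkbp5 the highest obese value belongs to DIO-SC-7.

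Of 24 measured glucocorticoid receptor targets, 6 rose and 1 fell, beside 2.29% of all genes that were higher and 5.99% that were lower, and the median was 0.13. The 6 were Pdk4, Zbtb16, Fkbp5, Angptl4, Map3k6 and Cdkn1a. Zbtb16, a zinc finger transcription factor, ran from 8.10 to 9.69 in obese lungs, against 6.99 to 8.08 in regular weight lungs, without overlap (difference 1.27 ± 0.27 SE, adjusted p = 0.0014, limma). Fkbp5, a cochaperone of the glucocorticoid receptor, ran from 9.40 to 11.05 in obese lungs, against 8.78 to 9.03, and differed by 0.99 ± 0.15 with all arrays and by 0.75 without DIO-SC-3 and DIO-SC-7 (adjusted p = 7.3e-06 and 2.9e-05). Map3k6, a stress kinase, was 0.70 higher (adjusted p = 0.0019), and Cdkn1a, the cell cycle inhibitor p21, 0.58 higher (adjusted p = 0.018). Angptl4, a secreted inhibitor of lipoprotein lipase, was 0.90 higher (adjusted p = 0.0073), but its other probe set was not called.

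The glucocorticoid list was not uniform. Tsc22d3, which encodes the leucine zipper GILZ, had a difference of 0.39 (adjusted p = 0.071, and 0.042 without the 2 arrays), and Per1, a clock gene that glucocorticoids induce, had 0.21 (adjusted p = 0.57). Lcn2, an iron-sequestering acute phase protein, was the 1 that fell, by 0.46 (adjusted p = 0.013), and it differed by -0.30 without the 2 arrays, where it was not called (adjusted p = 0.11). Without that pair, 7 of the 24 were higher and 0 lower. Among 12 p53 targets, 3 rose, among them Cdkn1a, also in the glucocorticoid list, and Ccng1, a cyclin, by 0.36 (adjusted p = 0.005). The counts of this list and of the next lists stand beside 2.29% of all genes that were higher and 5.99% that were lower. Of 20 immediate early genes 1 rose and 1 fell; the one that rose, the nuclear receptor Nr4a2, differed by 0.57 ± 0.08 (SE, adjusted p = 4.8e-06). Nfil3, a clock-controlled repressor, was 0.44 higher (adjusted p = 0.026) and the only 1 of 5 genes in Bmal1 phase that passed, and none of 11 genes that peak with Dbp passed in limma (1 at an unadjusted p under 0.05).

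B cell transcripts were lower in obese lungs. Of 17 measured B cell receptor and lineage genes, 14 fell and 0 rose, beside 5.99% of all genes that were lower, and the list median was -0.68, or -0.69 without DIO-SC-3 and DIO-SC-7, where 13 were called. For 10 of the 17 genes the highest obese array lay under the lowest regular weight array, beside 0.831% of all genes. The mean level of the list was -0.97 to -0.42 on obese arrays and -0.18 to 0.36 on regular weight arrays, and its highest value was on RW-SC-4.

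Cd79b and Cd79a encode the signalling chains of the B cell receptor. Cd79b ran from 8.71 to 9.52 with a median of 9.19 in obese lungs, against 9.99 to 10.55 with a median of 10.14 in regular weight lungs (difference -1.0 ± 0.12 SE, 2.00-fold lower, adjusted p = 7.1e-08, limma). Cd79a differed by -0.92 ± 0.14 (adjusted p = 6.3e-06). Ms4a1, the surface antigen CD20, had 8.48 to 9.35 in obese lungs and 9.66 to 10.49 in regular weight lungs (difference -0.98, adjusted p = 5.4e-06), and Fcer2a, the low-affinity IgE receptor, 7.52 to 8.56 in obese and 8.89 to 9.61 in regular weight lungs (difference -1.0, adjusted p = 1.1e-05). For each of these 4 genes no array of one group entered the range of the other.

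Other members had the same direction. The coreceptor Cd22 differed by -0.72 (adjusted p = 2.5e-07), the follicle-homing receptor Cxcr5 by -0.85 (adjusted p = 3.8e-06) and Fcrla, an Fc receptor-like protein of B cells, by -0.89 (adjusted p = 3.2e-07). The transcriptional coactivator Pou2af1 differed by -0.75, the complement receptor Cr2 by -0.60 and the kinase Blk by -0.62 (adjusted p = 1.4e-04, 9.6e-04 and 4.6e-05). An immunoglobulin heavy chain variable gene, Ighv14-2, differed by -1.17 and a light chain one, Igkv6-14, by -0.75 (adjusted p = 3.4e-08 and 0.0068), although probes of these gene families can read several members. None of 7 immunoglobulin and plasma cell genes on the list, which does not hold these variable genes, passed the adjusted threshold in limma (3 at an unadjusted p under 0.05), with a median of -0.20.

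Antigen presentation genes were lower as well. In the list of MHC class II and dendritic cell markers, 8 of 13 genes fell and 0 rose, beside 5.99% of all genes that were lower, with a median of -0.33, and 6 fell without DIO-SC-3 and DIO-SC-7, with a median of -0.27. H2-Oa and H2-DMb2 encode parts of the peptide-loading machinery, of which H2-Oa is known to be restricted mainly to B cells and thymus: they differed by -0.73 and -0.72 (adjusted p = 2.7e-05 and 4.6e-05). H2-Eb1, a class II beta chain, had 11.79 to 12.24 in obese lungs and 12.28 to 12.50 in regular weight lungs (difference -0.40, adjusted p = 0.0013), and H2-DMa and H2-Ab1 differed by -0.48 and -0.33. Cd74, the invariant chain, which is counted in both this list and the B cell list, differed by -0.23, and by -0.22 without the 2 arrays (adjusted p = 0.027 and 0.072). Ciita, the master regulator of class II genes, had -0.39 (adjusted p = 0.05).

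T cell values depended on DIO-SC-7. The list of 18 T cell receptor and coreceptor genes had a median of 0.18 with all arrays and -0.24 without DIO-SC-3 and DIO-SC-7. Its mean level was 2.78 on DIO-SC-7, and the median over obese arrays was -0.29, against -0.07 to 0.09 on regular weight arrays. Cd3e, a chain of the receptor complex, had 10.78 on DIO-SC-7, and its difference was 0.10 with all arrays and -0.23 without the 2 (adjusted p = 0.82 and 0.22). Ccr7, the lymph node homing receptor, fell by 0.62 (adjusted p = 0.0065, and 0.007 without the 2 arrays), and Cd2, an adhesion receptor, fell by 0.44 (adjusted p = 0.046, and 0.0026 without them). Thymocyte markers moved with this list on DIO-SC-7, and their part in the result was not tested.

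Other leukocyte and inflammatory groups gave few calls, and their counts stand beside 5.99% of all genes that were lower. None of 13 NK cell genes and none of 19 interferon-induced genes passed in limma, with medians of -0.25 and -0.19. At an unadjusted p under 0.05 there were 4 and 1. The interferon-induced level was 0.94 on RW-SC-4 and at most 0.03 on any obese array. Of 26 chemokines and cytokines 2 fell, Ccl9 by 0.39 and Ccl6 by 0.36 (adjusted p = 0.01 and 0.0088), and Ccl6, at -0.24 without the 2 arrays, was not called there (adjusted p = 0.065). Cxcl1, a neutrophil attractant, differed by -0.05 (adjusted p = 0.93), and Saa3, an acute phase protein made in the lung, by -0.40 (adjusted p = 0.36). Of 13 neutrophil genes 2 fell, among them the chemoattractant receptor Fpr2 by 0.59 (adjusted p = 0.0062), and without the 2 arrays 0 were called, with Fpr2 at -0.40 (adjusted p = 0.067). Of 14 alveolar macrophage genes 2 fell, among them Krt79 by 0.54 (adjusted p = 8.9e-04), while the scavenger receptor Marco had 0.18 (adjusted p = 0.54). Ctss, a lysosomal protease of antigen-presenting cells, differed by -0.42 with all arrays and by -0.36 without the 2, where it was not called (adjusted p = 0.012 and 0.06). Ifitm6 and Adgre4, both known from blood monocytes, differed by -1.12 and -0.87 (adjusted p = 1.6e-04 and 5.3e-04).

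Smooth muscle genes were higher in obese lungs. Of 15 contractile genes 11 rose and 0 fell, beside 2.29% of all genes, with a median of 0.40. Without DIO-SC-3 and DIO-SC-7, 7 rose, with a median of 0.36, and in a fit of the 16 air arrays alone 2 were called. Actg2, the enteric smooth muscle actin, had 8.75 to 10.69 with a median of 9.69 in obese lungs and 8.44 to 9.33 with a median of 8.78 in regular weight lungs (difference 0.74 ± 0.18 SE, adjusted p = 0.0058, limma). Acta2, the vascular form, was 0.42 higher, Cnn1, calponin, 0.67 and Tagln, transgelin, 0.34 (adjusted p = 0.0078, 0.012 and 0.018). Myh11, the smooth muscle myosin, was 0.44 higher with all arrays (adjusted p = 0.042) and 0.37 higher without the 2, where it was not called (adjusted p = 0.15). The other probe set of Acta2, at 0.05, and that of Myh11, at -0.02, were not called. In none of the 15 genes were the groups free of overlap.

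The level of cardiac muscle genes, which may come from the muscle sleeve of pulmonary veins or from carried-over heart tissue, varied within both groups. It ran from -0.67 to 1.52 on obese arrays with a median of 1.16 and from -1.21 to 1.0 on regular weight arrays, and 0 of its 16 genes passed the test in limma (5 at an unadjusted p under 0.05). The low obese arrays were DIO-SC-1 and DIO-SC-4, at -0.67 and -0.41, and the same 2 arrays were the lowest of the obese group in smooth muscle level, at 0.06 and 0.13. Their level of club and goblet cell genes was -0.68 and -0.67, against 0.86 to 0.96 on DIO-SC-2, DIO-SC-5, DIO-SC-6 and DIO-SC-8. The other two obese arrays did not share this order. DIO-SC-3 was the lowest obese array in club and goblet cell genes, at -0.94, but the highest in smooth muscle, at 0.68, with a cardiac level of 0.37. DIO-SC-7 had a club and goblet level of 0.38 and a smooth muscle level of 0.15, with a cardiac level of 1.35. Of the 15 club and goblet cell genes 0 were called in limma (0 at an unadjusted p under 0.05), with a median of 0.06. Among regular weight arrays, RW-SC-6 and RW-SC-7 were highest in all 3 lists. With the cardiac level of each array as a covariate in the fit, 5 of the 15 smooth muscle genes were called higher and the list median was 0.26, while 19 of the 22 chaperone genes and 13 of the 17 B cell genes were called in their directions.

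**Figure D3:**
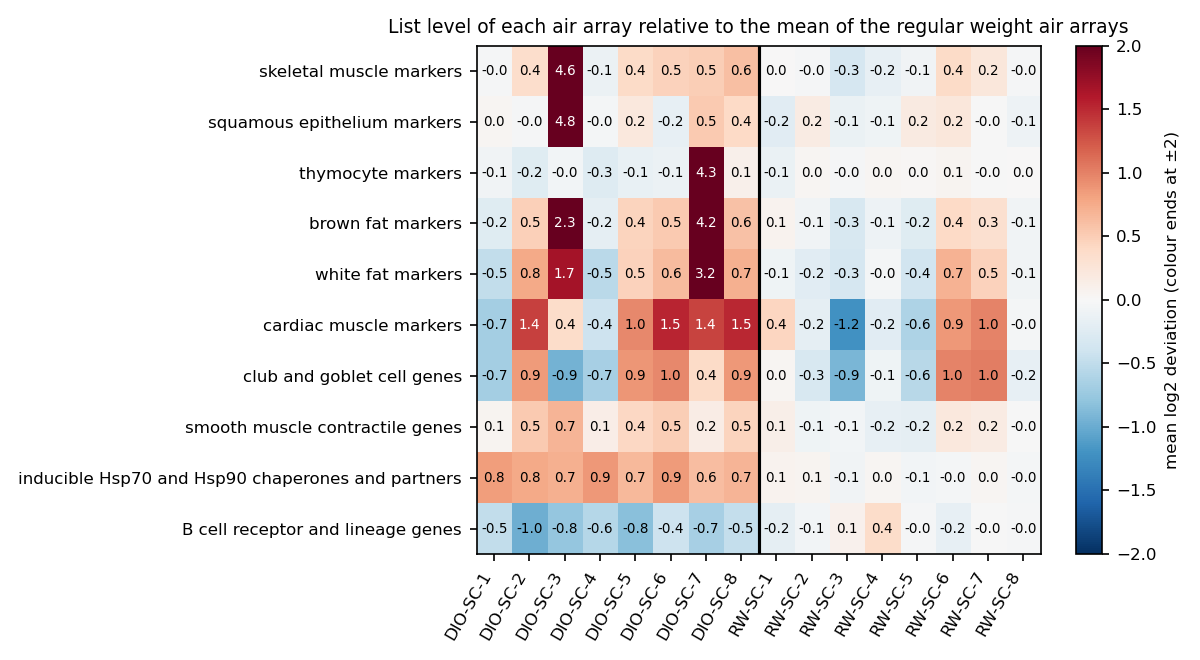
Mean log2 level of 10 gene lists on each air array relative to the mean of the regular weight arrays, obese arrays on the left. Skeletal muscle and squamous genes stand out on DIO-SC-3 and thymocyte genes on DIO-SC-7. Brown fat genes are high on both, white fat, cardiac, club cell and smooth muscle levels vary within both groups, and chaperone and B cell levels separate the groups on every array.

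Lung epithelium and endothelium gave small differences. Of 16 surfactant and alveolar type 2 genes 5 fell, beside 5.99% of all genes, with a median of -0.22, but DIO-SC-7 was lowest in this list at -0.74, and without DIO-SC-3 and DIO-SC-7 the median was -0.07 and 2 genes were called. Etv5, a transcription factor of type 2 cells, had 8.82 to 9.57 in obese lungs and 9.42 to 10.04 in regular weight lungs (difference -0.53 ± 0.11 SE, adjusted p = 8.1e-04, limma) and was -0.41 without the 2 arrays (adjusted p = 0.011). Lpcat1, which makes surfactant phosphatidylcholine, and Napsa, a protease that processes surfactant protein, differed by -0.41 and -0.34 with all arrays and by -0.24 and -0.17 without the pair, where they were not called (adjusted p = 0.10 and 0.13). Sftpc, the type 2 cell marker, had means of 15.06 in obese and 15.09 in regular weight lungs, close to the top of the scale of these arrays.

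None of 10 alveolar type 1 genes passed in limma (3 at an unadjusted p under 0.05), and 2 of 25 endothelial genes did, a share close to the 8.28% of all genes called in either direction. Apln and its receptor Aplnr were lower by 0.27 and 0.49 log2 units (-0.27 and -0.49, adjusted p = 0.012 and 0.0061). Esm1, a secreted endothelial proteoglycan outside these lists, had 6.92 to 8.08 in obese and 8.09 to 8.96 in regular weight lungs (difference -0.98, adjusted p = 8.4e-04). Of 27 collagen and matrix genes 2 rose, beside 2.29% of all genes that were higher, among them the proteoglycan Lum by 0.64 (adjusted p = 0.043). Without the 2 arrays 0 were called, with Lum at 0.32 (adjusted p = 0.34), while Col1a1 differed by 0.29 with all arrays (adjusted p = 0.30). Dnah8, a dynein heavy chain, was lower by 0.74 log2 units (-0.74, adjusted p = 3.4e-07) on the probe set used, but only 1 of its 2 probe sets was called.

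Metabolic genes gave few calls that stood without the 2 arrays, and their counts stand beside 2.29% of all genes that were higher and 5.99% that were lower. Pdk4, the kinase that restrains glucose oxidation, lay above all regular weight arrays on every obese array, with 7.23 to 11.19 in obese and 6.03 to 7.16 in regular weight lungs. Its difference was 1.68 with all arrays (adjusted p = 0.0064) and 0.97 without DIO-SC-3 and DIO-SC-7 (adjusted p = 0.085). Of 26 fatty acid oxidation and PPAR-alpha targets 3 rose, Pdk4, Angptl4 and Fabp3, and of these Angptl4 was called without the pair. The median of that list was 0.30 with all arrays and 0.09 without the pair. With all arrays 13 of the 26 had an unadjusted p under 0.05 in limma. Of 22 leptin, insulin and IGF genes, Igfbp5, which binds IGF, was 0.57 higher with no overlap (adjusted p = 0.0033), Lep, leptin itself, was 0.47 higher and Lepr, its receptor, was 0.41 below (-0.41). Another Lepr probe set, at -0.03, was not called. Lep stood at 3.87 to 4.82 in obese and 3.76 to 4.13 in regular weight lungs, near the bottom of the scale of these arrays, and without the 2 arrays it and Lepr differed by 0.34 and -0.29 and were not called (adjusted p = 0.051 and 0.10). White fat markers were at -0.53 to 3.23 on obese arrays and -0.39 to 0.70 on regular weight arrays, and their part in these results was not tested. Of 35 oxidative phosphorylation subunits 1 rose, a share close to that of all genes. It was Cycs, higher by 0.57 (adjusted p = 0.037), and at 0.31 without the pair (adjusted p = 0.30). The median of the subunits was 0.165 with all arrays and 0.04 without the pair. With all arrays 34 of the 35 differences were positive, and 14 had an unadjusted p under 0.05 in limma.

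**Figure D4:**
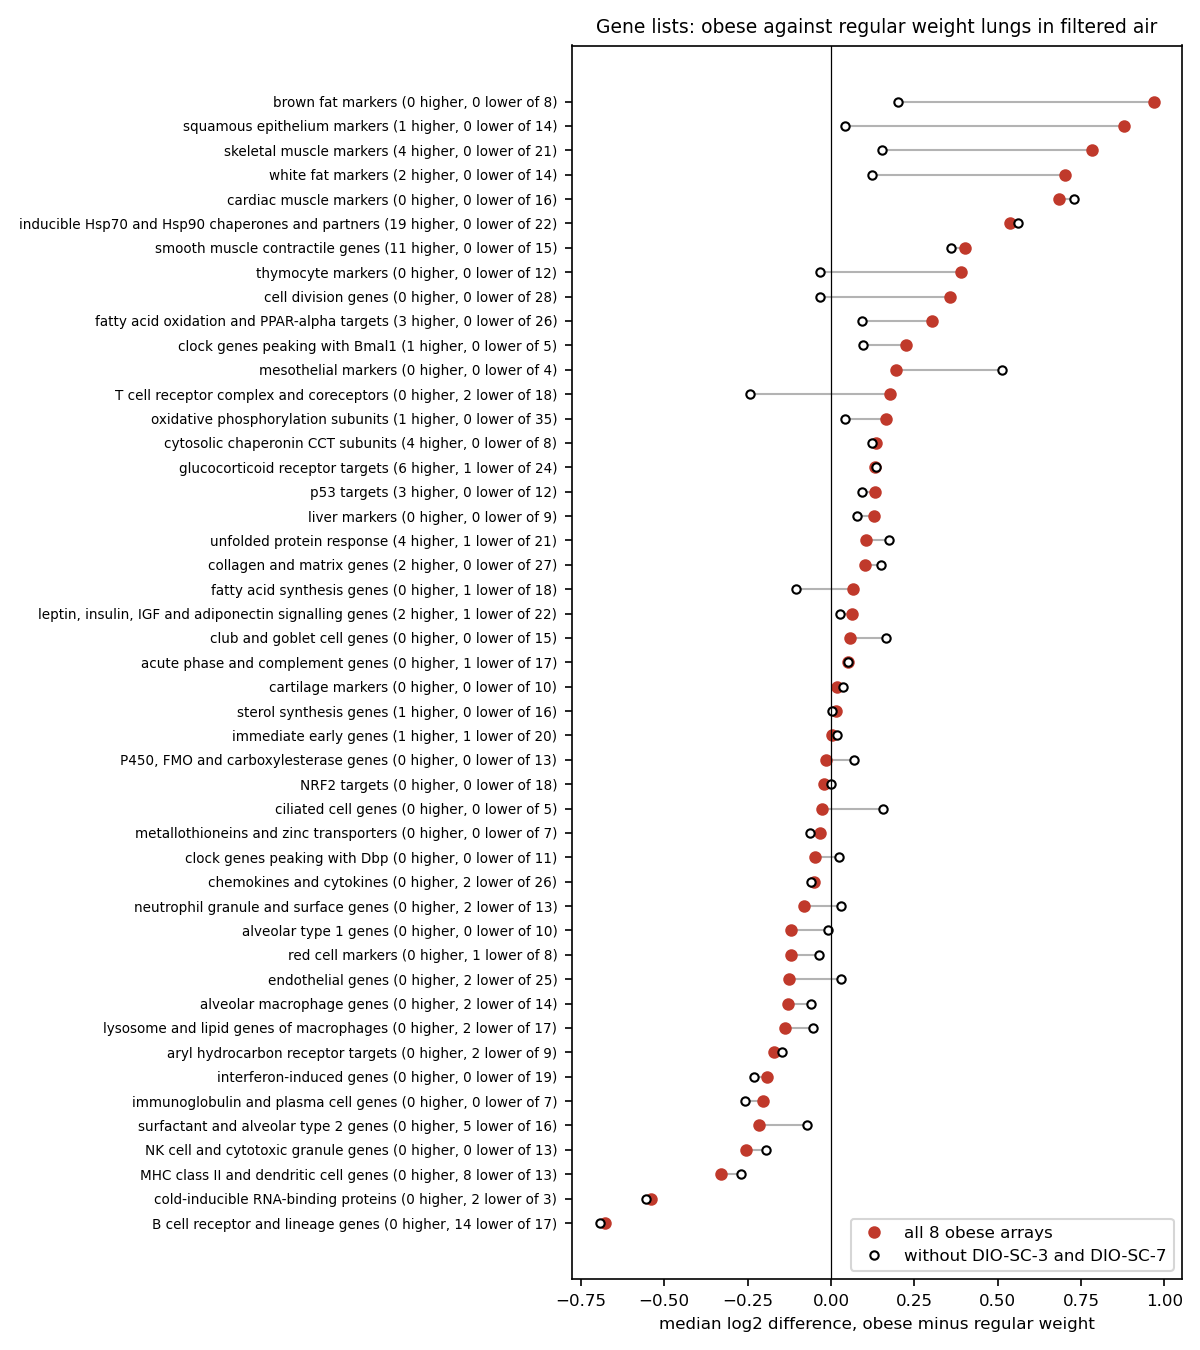
Median log2 difference (obese minus regular weight, in air) of each of the 47 gene lists with all obese arrays (red) and without DIO-SC-3 and DIO-SC-7 (open), with the number of genes called higher and lower of those measured. The B cell and chaperone medians, at -0.68 and 0.54, hardly move, while the fat, squamous, skeletal muscle, thymocyte and cell division medians drop towards 0.

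Some of the largest differences belonged to muscle genes or to genes that were highest on 1 of the 2 arrays. Acta1, skeletal muscle actin, was at 14.33 on DIO-SC-3, but its median over obese arrays was 6.55, against 5.18 in regular weight lungs, and it was called with and without DIO-SC-3 and DIO-SC-7 (differences 1.99 and 1.04, adjusted p = 0.026 and 4.8e-04, limma). Tnnt3, fast skeletal troponin T, did the same (1.60 and 0.89, adjusted p = 0.036 and 0.0092). Egln3, an oxygen-sensing prolyl hydroxylase, was 1.27 higher with all arrays and 0.68 higher without the 2 (adjusted p = 7.0e-04 and 9.7e-05). Nnat and Tubb2b, with Tubb2b highest on DIO-SC-7 at 8.57 and both known from neural and endocrine cells, were 0.86 and 0.81 higher (adjusted p = 0.0019 and 0.0028). Tnnc2, at 13.87 on DIO-SC-3, Krtdap, at 13.50 on DIO-SC-3, and Ucp1 and Adipoq, the markers of brown and white fat, did not pass with all arrays (adjusted p = 0.21, 0.10, 0.22 and 0.23).

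The calls lost without the 2 arrays included muscle, fat and squamous genes. The 10 largest differences among them were, with all arrays, Myl1 (1.92), Pdk4, Ckm (1.45), Fabp3 (1.35), Plin4 (1.19), Pde4dip (1.08), Aoc3 (1.08), Krt5 (0.99), Myom1 (0.95) and Itgb1bp2 (0.86), all higher, with adjusted p of 0.0064 to 0.048 in limma, and none was called without the pair. Their differences without it were still positive, at 1.03 for Myl1, 1.01 for Fabp3, 0.97 for Pdk4, 0.81 for Plin4, 0.78 for Ckm, 0.75 for Aoc3, 0.70 for Pde4dip, 0.53 for Myom1, 0.48 for Itgb1bp2 and 0.28 for Krt5. Ckm also varied among the remaining obese arrays. It was at 7.64 and 7.79 on DIO-SC-1 and DIO-SC-4, and at 8.92 to 9.52 on DIO-SC-2, DIO-SC-5, DIO-SC-6 and DIO-SC-8. Its highest regular weight value was 8.92, on RW-SC-7. The source of the remaining differences was not tested. The 10 largest among genes called only without the pair were, with their differences in that fit, Igkv8-30 (-0.71), Prkcb (-0.68), Ly6d (-0.65), Trim59 (-0.55), Map4k1 (-0.52) and Rac2 (-0.52), all lower, and Fabp1 (0.67), Wt1 (0.61), Atp6v1b1 (0.60) and Stbd1 (0.54), all higher. Prkcb and Rac2 act in lymphocyte signalling, and DIO-SC-7 was the highest obese array for both, at 10.72 and 11.23. Fabp1, a fatty acid-binding protein abundant in liver, was highest on DIO-SC-8, at 10.03, the array with the high liver marker level. With only DIO-SC-8 left out Fabp1 differed by 0.37, against 0.51 with all arrays (adjusted p = 0.27 and 0.11).

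The same diet difference was measured in other animals under smoke. Of the 1026 genes called in air, 47 were called in the same direction under mainstream smoke, 23 higher and 24 lower, where 0.613% of all genes were higher and 0.597% lower. Under sidestream smoke 31 were, 14 higher and 17 lower, where 0.654% of all genes were higher and 0.323% lower. In all 3 atmospheres 12 genes were higher and 6 lower in obese lungs, and 8 of the 12, among them Ahsa1, Ahsa2, Hsp90aa1, Hspa8, Hsph1 and Stip1, encode chaperones or their partners. Of the 22 chaperone genes 11 were higher under mainstream and 7 under sidestream smoke, with medians of 0.31 and 0.27. The shared counts of 47 and 31 depended on the fit. They were 70 and 59 without DIO-SC-3 and DIO-SC-7. They were 62 and 120 when DIO-MS-1, DIO-MS-6 and RW-SS-6 were left out too, and 85 and 186 with array weights.

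The largest air differences were smaller under smoke, although genes picked for a large difference in air tend to show less elsewhere, and both interactions use the same air arrays. For Hspa1b the diet difference was 0.88 under mainstream and 0.61 under sidestream smoke, less than in air by 2.12 and 2.39 log2 units (interaction -2.12 and -2.39, adjusted p = 3.9e-04 and 2.4e-05, limma). Hspa1b averaged 10.12 ± 0.64 in obese and 9.24 ± 0.51 in regular weight lungs under mainstream smoke (SD, n = 8 each). For Cyp1a1 the difference was -0.53 under mainstream and -1.0 under sidestream smoke (adjusted p = 0.25 and 0.0093), and both interactions passed (4.31 and 3.84, adjusted p = 2.1e-14 and 1.4e-12). Cyp1a1 averaged 8.36 ± 0.64 in obese and 8.89 ± 0.21 in regular weight lungs under mainstream smoke and 8.05 ± 0.41 and 9.04 ± 0.50 under sidestream smoke, so its level of 4.74 ± 0.33 in obese lungs in air stood apart from the other 5 groups. Cirbp kept a difference of -0.88 and -0.82 (adjusted p = 1.1e-05 and 5.5e-05), and its interactions did not pass (adjusted p = 0.49 and 0.42).

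In the fit of all 48 arrays, few B cell and glucocorticoid genes were called in the same direction under smoke. Of all genes, 0.613% were higher and 0.597% lower under mainstream smoke, and 0.654% were higher and 0.323% lower under sidestream smoke. Of the 24 glucocorticoid receptor targets 0 were higher under either smoke, and 1 was lower under mainstream and 3 under sidestream smoke. Of the 17 B cell genes 1 was lower under mainstream smoke and 0 under sidestream smoke, with medians of -0.17 and -0.07. The interaction of Fcer2a passed for both smokes (1.08 and 1.17, adjusted p = 0.007 and 0.0018), that of Ms4a1 for sidestream smoke only (0.99, adjusted p = 0.0057), and for mainstream smoke it did not (adjusted p = 0.059). Zbtb16 was 1.43 lower in obese lungs under sidestream smoke (-1.43, adjusted p = 0.0021), opposite to air (interaction -2.70, adjusted p = 2.2e-05). It averaged 6.78 ± 0.29 in obese and 8.21 ± 0.81 in regular weight lungs there (SD, n = 8 each). The regular weight group, with the wider spread, includes RW-SS-6, and the part of that array was not tested. Of the 15 smooth muscle genes 0 were called under either smoke, with medians of -0.11 and 0.19. MHC class II genes likewise gave 0 calls of 13, with medians of 0.11 and -0.11.

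Beside the chaperones, 4 genes chosen after their values were seen had the same direction in all 3 atmospheres. Mfap4, a microfibril protein of elastic tissue, was 0.51 higher in air, 0.78 under mainstream and 1.08 under sidestream smoke (adjusted p = 0.0088, 2.9e-04 and 6.0e-07). Plat, tissue plasminogen activator, was 0.57, 0.42 and 0.37 higher. Cxcl14, an epithelial chemokine, differed by -0.70, -0.49 and -0.47, and Grp, a neuroendocrine peptide, by -0.54, -0.70 and -0.81. None of their interactions passed (adjusted p from 0.15 to 0.77).

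**Figure D5:**
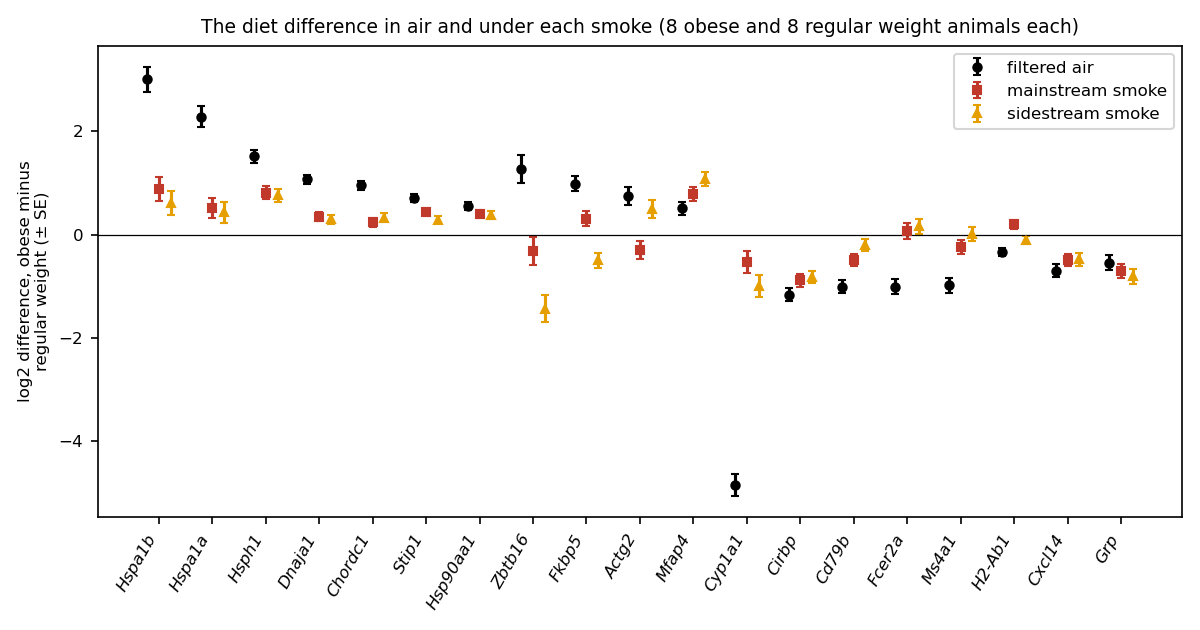
Log2 difference between obese and regular weight lungs (± SE) of 19 genes in air (black), mainstream smoke (red) and sidestream smoke (orange), 8 obese and 8 regular weight animals each. Hspa1b and Cyp1a1 shrink from 3.01 and -4.84 in air towards 0 under both smokes, while Cirbp stays between -1.16 and -0.82.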

How the data were processed

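Whole lung RNA from 48 mice was labelled with biotin and hybridised to Affymetrix arrays, 1 array an animal. The deposited log2 values are those of the authors' series table, made with RMA per the submitters' processing notes, and the version is not given in the sources used here. RMA subtracts background, quantile-normalises the arrays together and summarises each probe set, which compresses differences of dim genes and lets a large tissue admixture on 1 array shift its other genes slightly. The number of arrays limits the precision.

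Each gene was represented by the probe set with the highest mean over 48 arrays among those annotated to 1 symbol. Of 22690 probe sets, 20380 had 1 symbol, which gave 12393 genes, and 2246 probe sets without exactly 1 symbol, controls aside, are not named. Group means were fitted with limma 3.58.1 in R 4.3.3 (lmFit and eBayes, 6 groups, 2-sided), p-values were adjusted by Benjamini-Hochberg over all genes, and genes were called at an adjusted p below 0.05. The smoke arrays entered the fit to estimate the spread. The fit was tested on simulated data. The genes and gene lists were chosen with earlier results of these data known. Named genes are the 15 highest and 15 lowest of the genes called with and without DIO-SC-3 and DIO-SC-7, up to 6 called members and core members of a list, and the 10 largest calls lost and gained without those arrays. List levels are means of each gene's deviation from its mean over regular weight air arrays. The replicate numbers come from the titles. Fits that left out arrays, weighted, blocked, centred or quantile-normalised them were alternatives, and 2 more were added after seeing the data.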

Additional observations from a re-analysis of the deposited data

Results flagged for a closer look

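In 37 of 248 sets of 8 values (1 gene in 1 group), the highest or lowest array lay farther from the next than Dixon's 95% limit for 8 values. Chance gives about 1 such set in 20 for genes not chosen by their values. Some of these genes were named because their calls changed without DIO-SC-3 and DIO-SC-7 or because they mark tissue found there, so the number of sets is a description and is not set against chance. Array DIO-SC-3 was the highest of its group, in log2 signal, for Acta1 at 14.33, Tnnt3 at 12.99, Itgb1bp2 at 9.75, Myom1 at 10.47, Ckm at 13.51, Tnnc2 at 13.87, Krtdap at 13.50 and Krt4 at 13.86. Array DIO-SC-3 was the lowest of its group, in log2 signal, for Dnah8 at 7.72. Array DIO-SC-7 was the highest of its group, in log2 signal, for Fkbp5 at 11.05, Tubb2b at 8.57, Igkv6-14 at 8.14, Hspd1 at 12.41, Cyp1b1 at 8.41, Cd2 at 9.82, Cd3e at 10.78, Trim59 at 9.06, Map4k1 at 8.60, Aoc3 at 9.84, Prkcb at 10.72, Rac2 at 11.23 and Rag1 at 12.37. Array DIO-SC-7 was the lowest of its group, in log2 signal, for Cryab at 11.69, Lcn2 at 9.63, Hspa5 at 12.15, Ccl6 at 11.22, Napsa at 11.47, Sftpc at 14.97, Aplnr at 10.32, Lepr at 8.34, Wt1 at 4.49, Mfap4 at 11.55, Cxcl14 at 8.75 and Plat at 9.10. Array RW-SC-1 was the highest of its group, in log2 signal, for Creld2 at 9.73. Array RW-SC-1 was the lowest of its group, in log2 signal, for Cd3e at 8.10. Array RW-SC-6 was the lowest of its group, in log2 signal, for Lepr at 8.83.

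The diet difference of a gene in smoke, less that in air, passed the limma interaction test for the following named genes. They were named for their air difference, so that a smaller difference elsewhere is partly built in, and the values are descriptions. With mainstream smoke it was above that in air, in log2 units, by a signed 4.31 for Cyp1a1, 1.08 for Fcer2a, 0.68 for Cxcr5, 0.39 for Cd74, 0.66 for H2-DMb2, 0.53 for H2-Ab1, 0.54 for H2-Eb1, 0.92 for Ccr7, 0.82 for Fpr2, 0.74 for Ccl9 and 0.70 for Etv5. With mainstream smoke it was below that in air, in log2 units, by a signed -2.12 for Hspa1b, -1.77 for Hspa1a, -0.71 for Hsph1, -1.59 for Zbtb16, -1.35 for Egln3, -0.72 for Dnaja1, -0.72 for Chordc1, -0.49 for Cacybp, -0.36 for Cct6a, -1.04 for Actg2, -0.98 for Cnn1, -0.66 for Acta2, -0.52 for Tagln and -0.48 for Nr4a2. With sidestream smoke it was above that in air, in log2 units, by a signed 3.84 for Cyp1a1, 1.11 for Ighv14-2, 1.17 for Fcer2a, 0.81 for Cd79b, 0.99 for Ms4a1, 0.82 for Cd79a, 0.70 for Fcrla, 0.89 for Cxcr5, 0.57 for Dnah8, 0.69 for Ahr, 0.65 for Cd22, 0.69 for Cr2 and 0.62 for Etv5. With sidestream smoke it was below that in air, in log2 units, by a signed -2.39 for Hspa1b, -1.85 for Hspa1a, -0.75 for Hsph1, -2.70 for Zbtb16, -1.46 for Egln3, -0.77 for Dnaja1, -0.59 for Ahsa2, -1.49 for Fkbp5, -0.63 for Chordc1, -0.60 for Cacybp, -0.41 for Stip1, -0.34 for Cct6a and -1.03 for Map3k6.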

How the results depend on the processing

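Results were refitted under up to 28 alternatives, of which 2 were added after seeing the data: the 14 air arrays alone without DIO-SC-3 and DIO-SC-7, and the cardiac muscle level as a covariate. The counts shared with smoke have no value in fits of air arrays alone, and some dim genes and the cartilage median have none with the dimmest genes left out. The 284 genes higher in obese lungs became 73 in a fit of the 16 air arrays alone and 431 without the 5 arrays that stand apart in the series, and leaving out 1 air array at a time gave 215 to 380, the lowest without RW-SC-5. The 742 lower genes became 239 with the 16 air arrays alone, 472 without DIO-SC-3 and DIO-SC-7 and 413 with the 14 air arrays, and 505 (without DIO-SC-3) to 1038 (without DIO-SC-4) with 1 array left out. The 47 genes called the same way under mainstream smoke became 85 with array weights, and 40 to 64 with 1 array left out. The 31 under sidestream smoke became 57 without DIO-SC-7, 59 without DIO-SC-3 and DIO-SC-7, 120 without the 5 arrays and 186 with array weights, and 27 to 57 with 1 array left out. The causes were not tested. Of the 95 named genes called in air, 73 were called in the same direction without DIO-SC-3 and DIO-SC-7, 59 with the 16 air arrays alone and 78 with the cardiac level as a covariate. Among named genes, signs turned only for differences that were not called. Nqo1 was -0.18 without DIO-SC-3 and DIO-SC-7, without the 5 arrays and with the 14 air arrays, and -0.16 with array weights. Cd3e was -0.23 and -0.20 there, Cxcl1 0.066 and 0.043, and Ucp1 -0.051 in the first 3, against 1.80 with all arrays (adjusted p = 0.22). With 1 array left out, Nqo1 ran from -0.065 to 0.11, Cd3e from -0.21 to 0.22, Cxcl1 from -0.11 to 0.015 and Ly6d from -0.35 to 0.11, and Ly6d was 0.043 with the cardiac level as a covariate. Sftpc was 0.0006 with centred arrays and 0.017 with the mean of its probe sets. The replicate numbers do not pair the animals: correlations of same-numbered arrays ran from -0.23 to 0.13 and 0 of 8 matched best with its own number. With the replicate number as a block, 301 genes were higher and 721 lower, and all 95 named calls stayed.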
